A study of Mus musculus with 12 samples.

Results

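The genes described here are the noncoding RNA TUNA and 8 genes that lie near it on mouse chromosome 12, measured in mouse embryonic stem cells that carried a hairpin against TUNA. The members were listed by name: 2810011L19Rik, the row of TUNA (current symbol Tunar), and its neighbours Dicer1, Clmn, Snhg10, Glrx5, Tcl1, Tcl1b1, Tcl1b2 and Tcl1b3. They make up 9 of the 37477 rows of the table. RNA came from CCE cells, a mouse embryonic stem cell line grown in serum with LIF, after transduction with a pLKO.1-puro lentivirus and puromycin selection. The 12 libraries form 4 groups of 3: a control hairpin at day 2 after transduction, and the TUNA hairpin at day 2, day 4 and day 6. All groups thus share the virus backbone and the selection, and the labels do not give the target of the control hairpin or the number of TUNA hairpins. The control was sampled at day 2 only, so in the day 4 and day 6 comparisons the hairpin and the days in culture cannot be told apart. Whether the 3 libraries of a group are separate cultures is not given in the labels, so p-values cover the variation among libraries, some of which may be technical.

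TUNA is a long intergenic noncoding RNA that has been reported to be required for embryonic stem cells to stay pluripotent, acting with RNA-binding proteins at pluripotency genes. A noncoding RNA can act on distant genes or on the genes next to it, and levels of the neighbours after a knockdown are the usual first look at the second case. The neighbours have unrelated roles. Dicer1 encodes the nuclease that cuts microRNA precursors, Clmn a membrane protein with calponin-like domains, and Glrx5 a mitochondrial glutaredoxin that passes on iron-sulfur clusters. Snhg10 is a noncoding host gene whose intron holds the small Cajal body RNA Scarna13. Tcl1 encodes a coactivator of the kinase AKT that embryonic stem cells express. The Tcl1b genes belong to the same family and lie side by side between Glrx5 and Tcl1.

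In the RefSeq order of GRCm38.p6, the genes of the locus stand in the sequence Dicer1, Clmn, Snhg10, Glrx5, Tcl1b2, Tcl1b1, Tcl1b5, Tcl1b3, Tcl1b4, Tcl1 and TUNA, with the non-members Tcl1b5 and Tcl1b4 among them and Scarna13 inside Snhg10, so that Tcl1 is the row next to TUNA. The authors' build was mm9, and the annotation served here for names, neighbours and start sites only. The sequences before 4 start sites are shown for the targeted RNA, for Tcl1, which passed a test where Dicer1, the other tested member, did not, and for Snhg10 and Glrx5, a divergent pair whose windows overlap. Each holds the 250 bases before a RefSeq start in GRCm38.p6, read 5′ to 3′ on the gene's own strand: chr12:105336344-105336593 on the plus strand for the first of the TUNA starts, chr12:105222738-105222987 on the minus strand for Tcl1, chr12:105032280-105032529 on the minus strand for Snhg10 and chr12:105032368-105032617 on the plus strand for Glrx5. Capitals mark CCAAT or GGGCGG on either strand.
TUNA: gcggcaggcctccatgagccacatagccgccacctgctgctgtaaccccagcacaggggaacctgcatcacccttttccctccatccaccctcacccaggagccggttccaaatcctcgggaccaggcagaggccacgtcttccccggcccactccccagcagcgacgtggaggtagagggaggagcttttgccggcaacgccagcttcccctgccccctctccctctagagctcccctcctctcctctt
Tcl1: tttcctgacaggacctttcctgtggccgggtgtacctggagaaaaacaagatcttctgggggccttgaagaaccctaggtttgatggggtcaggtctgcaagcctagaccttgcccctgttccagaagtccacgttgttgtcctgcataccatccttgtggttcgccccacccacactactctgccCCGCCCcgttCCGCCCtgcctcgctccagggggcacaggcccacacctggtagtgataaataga
Snhg10: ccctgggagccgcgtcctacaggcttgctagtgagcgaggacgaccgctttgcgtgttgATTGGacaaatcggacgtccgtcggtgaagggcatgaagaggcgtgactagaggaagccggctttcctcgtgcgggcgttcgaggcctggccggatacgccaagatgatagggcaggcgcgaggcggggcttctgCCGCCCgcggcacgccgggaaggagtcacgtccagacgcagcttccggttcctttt
Glrx5: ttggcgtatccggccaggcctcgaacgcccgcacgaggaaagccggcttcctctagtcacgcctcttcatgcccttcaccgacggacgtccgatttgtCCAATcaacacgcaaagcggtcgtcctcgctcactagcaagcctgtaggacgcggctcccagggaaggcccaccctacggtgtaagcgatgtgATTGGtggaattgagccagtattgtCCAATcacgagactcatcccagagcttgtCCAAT
The Snhg10 and Glrx5 windows share 162 bases, and their start sites lie 339 bases apart on opposite strands. The Glrx5 window held 4 matches of CCAAT, 1 of them in the shared stretch, while at least 4 matches occurred in 0.84% of the 32851 RefSeq windows of this length and at least 1 in 33.8%. The Tcl1 window held 2 matches of GGGCGG, as did at least 2 in 16.7% of all windows, and 7 CpG dinucleotides against a median of 6. The Clmn window held 7 matches of GGGCGG and 25 CpG dinucleotides. At least 1 match of GGGCGG occurred in 32.7% of all windows, and the share with 7 was not counted. The Dicer1 and Snhg10 windows each held 1 match of either motif, with 39 and 29 CpG dinucleotides, and the Glrx5 window had 21. The windows before Tcl1b1, Tcl1b2 and Tcl1b3 held 1, 3 and 3 CpG dinucleotides and neither motif. The first TUNA window had 10 CpG dinucleotides and no match of either motif, and its second RefSeq start, further into the gene, had 25 and 2 matches of GGGCGG. None of the members' windows held TATAAA, ATGCAAAT or CACGTG on either strand, which 12.4%, 1.6% and 6.02% of all windows held. These matches describe letters in a window, not sites that a factor uses.

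Values below are normalized counts, obtained by raising 2 to the deposited log2 value. Reads per library, recovered from the steps between low values, totalled 3522126 to 5652412. The 3 largest rows took 60.4% to 76.9% of them, which left 936421 to 2024737 reads for all others. All 10 markers of embryonic stem cells were above 0 in every group (summed level 3053 to 3261 in the control). A deposited 0 stands for 1 normalized count or less, at most 1 read in any library, and a row at that value is called listed at 0.

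Most of the locus was at or near the floor of the table at this depth. TUNA itself was listed at 0 in all 12 libraries, control and hairpin alike, so its knockdown could not be checked here and the group labels rest on the submitters' words. Tcl1b1, Tcl1b2 and Tcl1b3 were listed at 0 in all 12 libraries as well, as were the remaining Tcl1b genes, Tcl1b4 and Tcl1b5. Because the Tcl1b genes are related and the table holds weighted counts, reads that match several of them may have been split or lost. These 0 values are therefore uncertain, and the sequences of the family were not compared here. Clmn was above 0 in 8 libraries and Snhg10 in 9, neither above 5 normalized counts. Glrx5 was above 0 in all 12 but reached 10 normalized counts in only 1. The test required 3 or more libraries with 10 or more normalized counts, which Dicer1 and Tcl1 alone met, so 2 of 9 members were tested. Low values were common in the whole table too, where 21694 of 37477 rows were listed at 0 in every library and 8739 were tested.

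**Figure D1:**
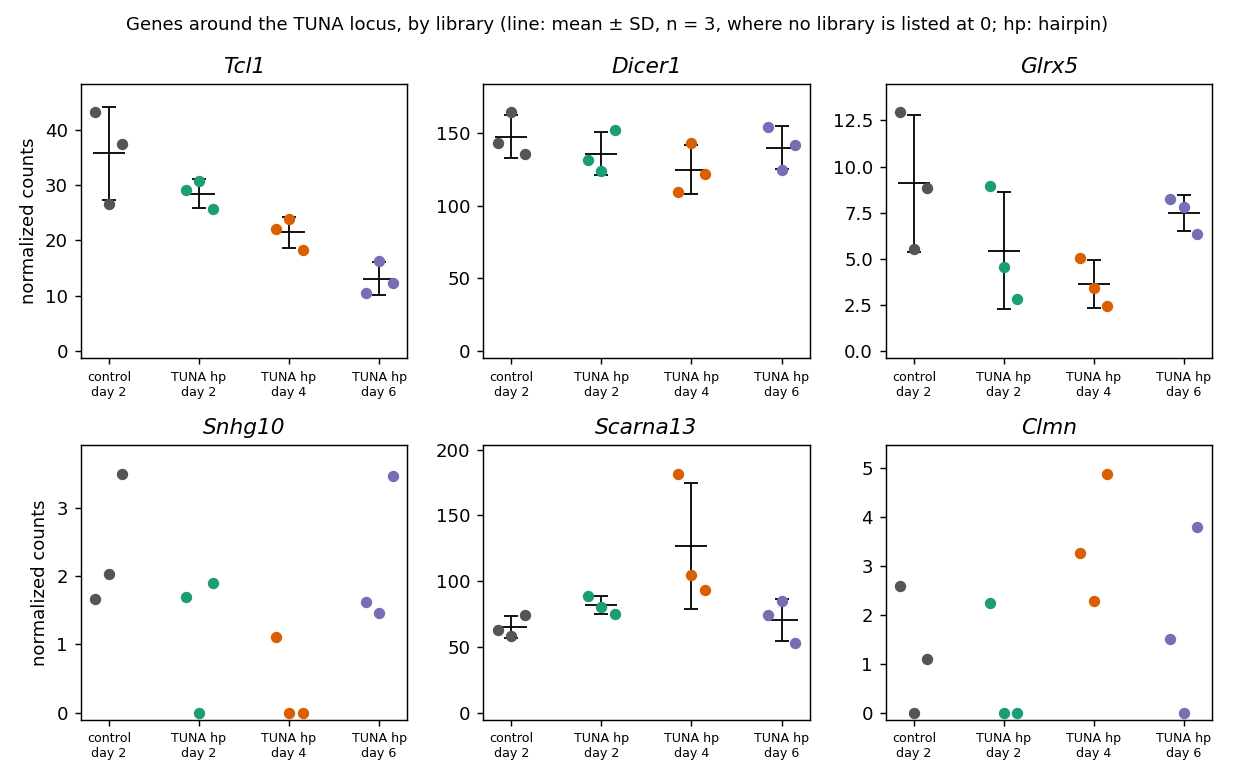
Normalized counts (y axis, linear, one scale per gene) of 5 members and of Scarna13, the RNA in the Snhg10 intron, in each library (points) of the 4 groups (x axis), with lines for mean ± SD (n = 3) in genes with no library listed at 0. Tcl1 steps down from 26.7 to 43.1 in the control to 10.5 to 16.4 at day 6, while the Dicer1 groups overlap.

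Tcl1 was the 1 member that passed a test. It had 43.1, 26.7 and 37.4 normalized counts in the control libraries, 29.1, 30.6 and 25.6 at day 2, 22.1, 23.9 and 18.3 at day 4, and 10.5, 16.4 and 12.3 at day 6. Every day 4 library was below every day 2 library, and every day 6 library below every day 4 library, whereas day 2 overlapped the control. The group means were 35.7 ± 8.36, 28.5 ± 2.56, 21.4 ± 2.86 and 13.1 ± 2.998 (SD, n = 3), in the order control, day 2, day 4, day 6. Against the control Tcl1 fell 2.60-fold by day 6 (log2 change -1.38 ± 0.25, SE; adjusted p 0.00308 by limma with Benjamini-Hochberg over 8739 rows). It also fell from day 2 to day 6, a comparison between hairpin libraries only (log2 change -1.08 ± 0.25, adjusted p 0.0216 by limma). In these comparisons 3.15% and 2.54% of all rows tested were called lower, and 12.8% and 13.4% had libraries that lay entirely below. The single steps did not pass: the log2 change was -0.29 from control to day 2 (adjusted p 0.701), -0.40 from day 2 to day 4 (0.367) and -0.69 from day 4 to day 6 (0.123), all by limma, and the change from control to day 4 was -0.69 (0.0767). Neighbours in the order of levels thus missed this test's threshold. Of all rows tested, 14.3% lay entirely below at day 4 against day 2 and 11.8% at day 6 against day 4, and a descent from day 2 through day 4 to day 6 without any overlap was seen in 0.389%. That last share counts the very order that Tcl1 showed, in 1 direction only, so it is a description and not a test. The share of rows called in either direction was 7.66% for day 4 against day 2, 5.58% for day 6 against day 4 and 4.5% for day 6 against day 2.

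The Tcl1 values rest on 112.9 recovered reads over the 3 control libraries and 71.0, 69.9 and 48.0 over those of day 2, day 4 and day 6. The day 6 call held with each of the 6 libraries left out (adjusted p 0.00348 to 0.0228 by limma). The fall from day 2 to day 6 did not pass without any 1 of the 3 day 2 replicates or without day 6 replicate 1 (adjusted p 0.0535 to 0.0989). When all reads of a library, the 3 largest rows included, were taken as its size, a setting chosen after the data were seen, the median of all rows at day 6 moved to 0.43 and Tcl1 stood at -1.01 ± 0.34 (adjusted p 0.0527 by limma-voom). At day 6 the 10 markers of embryonic stem cells summed to 1889 to 2322 against 3053 to 3261 normalized counts in the control. Of these 10, 4 were lower and 0 higher by limma, where 3.15% and 3.07% of all rows tested were called lower and higher. Of 9 fibroblast or feeder markers, 3 were above 0 and summed to 242 to 331 at day 6 against 6.62 to 10.3, and Acta2 and Tagln were the called ones. Thy1, the other one above 0, did not rise, with a mean of 1.86 in the control and 0.52 at day 6. Col1a1, Col1a2, Col3a1, Dcn, Lum and Postn were listed at 0 in every library. The rise of the sum thus came from Acta2 and Tagln and not from the list as a whole. Endoderm markers, with Afp and Ttr listed at 0, summed to 1.501 to 10.1 at day 6 against 4.60 to 8.63. Neural markers summed to 14.26 to 20.86 at day 6 against 13.75 to 29.72. In both lists the day 6 range overlapped that of the control. The part of the stem cell marker shift and of the Acta2 and Tagln rise in the Tcl1 result was not tested. In bulk RNA fewer cells of a type and less RNA per cell cannot be told apart.

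The rows whose pattern over the 12 libraries was most like that of Tcl1, among 3260 rows averaging at least 50 normalized counts, were Esco2, a cohesin acetyltransferase (Pearson r 0.935), Aebp2, a partner of Polycomb complex PRC2 (0.926), and Manba, beta-mannosidase (0.908). All points share their libraries and scaling, and the groups differ in mean, so these values are a description. The Aebp2 mean was 248 ± 7.68 with the control hairpin, 177 ± 9.51 on day 2, 129 ± 9.40 on day 4 and 88.1 ± 11.0 on day 6 (SD, n = 3). Esco2 went from 259 ± 12.1 to 186 ± 16.4 and Manba from 209 ± 19.5 to 80.7 ± 20.9 between control and day 6.

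Dicer1 passed none of the 6 comparisons. It had 142.9, 164.2 and 135.3 normalized counts in the control, 131.5, 123.8 and 152.3 at day 2, 109.5, 142.9 and 122.0 at day 4, and 153.9, 124.4 and 141.7 at day 6. The 4 groups overlapped in every pair. Its log2 changes against the control were -0.12 at day 2 (95% interval -0.45 to 0.21, adjusted p 0.831), -0.24 at day 4 (-0.575 to 0.09, 0.326) and -0.08 at day 6 (-0.41 to 0.26, 0.851), all by limma. A log2 change below -0.575 lies outside each of these intervals, and smaller falls lie within at least 1 of them. The rows most like Dicer1 over the 12 libraries were Rfwd2, a ubiquitin ligase gene (r 0.821), LOC100503887 (0.798) and Phc1, a Polycomb gene (0.792).

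Glrx5 and Snhg10, the divergent pair, were both lowest at day 4. Glrx5 had 12.9, 5.52 and 8.82 normalized counts in the control, 8.96, 4.54 and 2.85 at day 2, 5.06, 3.42 and 2.44 at day 4, and 8.26, 7.79 and 6.37 at day 6. Its day 4 libraries were all below the control libraries, and the day 2 and day 6 libraries overlapped them. Snhg10 had 1.67, 2.03 and 3.51 in the control, 1.69, 0 and 1.91 at day 2, 1.11, 0 and 0 at day 4, and 1.62, 1.47 and 3.47 at day 6, where 0 means listed at 0. It too was lower in every day 4 library than in every control library. On the log2(value + 1) scale the day 4 difference from the control was -1.09 for Glrx5 and -1.37 for Snhg10, each with an exact two-sided permutation p of 0.1, the smallest that 3 against 3 libraries allow, and an adjusted p of 0.45 over the 9 comparisons of the low members. Of all rows tested, 16.9% had day 4 libraries entirely below the control libraries. The counts were small: Glrx5 rested on 29.0 recovered reads over the control libraries and 12.8 over those of day 4, and Snhg10 on 7.32 and 1.70.

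Scarna13, the small Cajal body RNA whose gene lies in an intron of Snhg10 on the same strand per GENCODE M21, was far above its host in counts, and how reads in the intron were assigned is not stated. It had 62.5, 58.3 and 74.1 normalized counts in the control, 88.7, 80.6 and 75.3 at day 2, 181.6, 104.9 and 93.3 at day 4, and 74.2, 84.5 and 52.7 at day 6. All libraries of days 2 and 4 lay above the control, day 4 replicate 1 furthest, and day 6 overlapped it. Groups that lay entirely above the control were seen in 9.76% of all rows at day 2 and 15.5% at day 4. The rise at day 4 passed the test (log2 change 0.90 ± 0.23, adjusted p 0.0141 by limma), where 6.99% of all rows were called higher. Without day 4 replicate 1 it was 0.61 (adjusted p 0.0763) and without control replicate 2 it was 0.82 (0.0606). Scarna13 is not one of the 9 members, and it was named by the rule for flanking rows.

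Clmn was near the limit of detection. It had 2.59, 0 and 1.10 normalized counts in the control, 2.24, 0 and 0 at day 2, 3.26, 2.28 and 4.89 at day 4, and 1.501, 0 and 3.79 at day 6, with 0 again meaning listed at 0. Day 4 was the one group with no library listed at 0, but its lowest value was under the highest control value. The difference at day 4 was 1.15 on the log2(value + 1) scale (exact two-sided permutation p 0.2, adjusted p 0.54). Over the 3 libraries of a group Clmn had between 2.00 and 11.0 recovered reads.

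**Figure D2:**
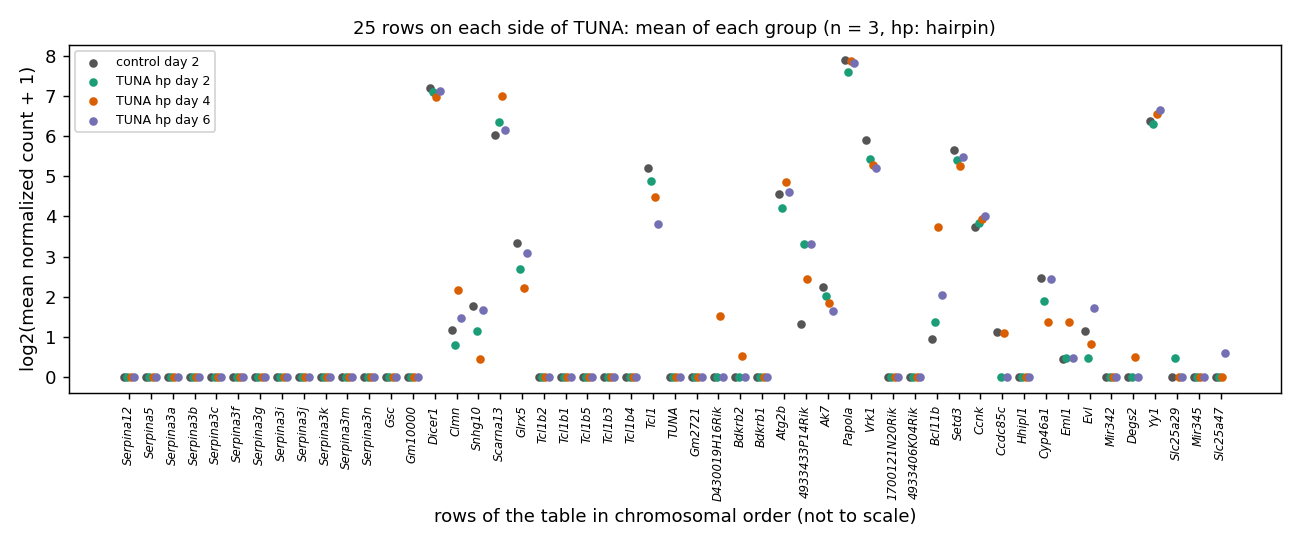
Log2 of the mean normalized count plus 1 (y axis) in each group (colours, n = 3) for the 25 rows before and the 25 rows after TUNA in chromosomal order (x axis, not to scale). TUNA sits among rows at 0, with Dicer1, Scarna13, Tcl1, Papola, Vrk1, Setd3 and Yy1 as the higher rows around it.

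The wider neighbourhood was read from the 25 rows of the table on each side of TUNA, pseudogenes left out. Of these 50 rows, 26 were listed at 0 in every library: 19 on the side of Dicer1 and Tcl1, where the serpin genes lie, and 7 on the other side. Gsc, a homeobox gene of early embryos, and the bradykinin receptor gene Bdkrb1 were among them. Only 9 of the 50 were tested, and against the control 0 passed at day 2, Scarna13 was higher at day 4 and Tcl1 was lower at day 6. The share of all rows called in either direction was 0.961%, 14.7% and 6.21%, and among the 294 tested rows of chromosome 12 it was 0.34%, 12.9% and 5.78%. The median log2 change of the 9 was -0.24 at day 2, -0.02 at day 4 and -0.06 at day 6, beside 0.01, -0.01 and -0.01 over all rows.

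On the far side of TUNA from Tcl1, the nearest tested rows were Atg2b, an autophagy gene, Papola, a poly(A) polymerase, and Vrk1, a chromatin kinase. Vrk1 had 65.3, 55.3 and 55.3 normalized counts in the control, 33.8, 48.8 and 44.2 at day 2, 39.1, 31.1 and 44.6 at day 4 and 34.7, 31.6 and 40.9 at day 6. All 9 hairpin libraries were thus under the control libraries, a placement that 3.14% of all rows had (10.3%, 16.9% and 12.8% for day 2, day 4 and day 6 taken singly), but no day passed over all rows (log2 change -0.47, -0.61 and -0.70 at days 2, 4 and 6, adjusted p 0.37, 0.0571 and 0.054 by limma). With limma-voom on the recovered reads Vrk1 passed at days 4 and 6 (adjusted p 0.0444 and 0.0314), and with limma it passed at day 4 without day 4 replicate 3 (0.0396) and at day 6 without day 6 replicate 3 (0.0452). The mean of Papola was 237 ± 20.1 with the control hairpin, 195 ± 14.6 on day 2, 233 ± 9.03 on day 4 and 228 ± 24.1 on day 6 (SD, n = 3). That of Atg2b was 22.7 ± 7.92, 17.6 ± 3.67, 27.98 ± 1.86 and 23.3 ± 3.42 in the same order. Neither passed in any comparison against the control (lowest adjusted p 0.434 and 0.433). Without the filter on low values, 2 further flanking rows passed against the control, and they are named after their values were seen. That fit took in 24 of the 50 flanking rows. It covered the 37477 rows of the table except the 21694 listed at 0 in every library, and it called 1228 at day 4 and 569 at day 6. Bcl11b, a zinc finger transcription factor gene, had 0, 2.76 and 0 in the control libraries and 5.86, 11.4 and 19.6 at day 4 (log2 change 2.95 ± 0.72, adjusted p 0.016 by limma without filter). The other was 4933433P14Rik, the older symbol of Gskip, a regulator of the kinase GSK3, at day 6 (2.44 ± 0.65, 0.0453). It had 2 of 3 control libraries listed at 0 and 4.41 in the other. Its hairpin libraries ranged from 2.44, on day 4, to 13.2, on day 6. Both rows rested on few reads in the control, 3.0 for Bcl11b and 4.0 for 4933433P14Rik over the 3 libraries.

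**Figure D3:**
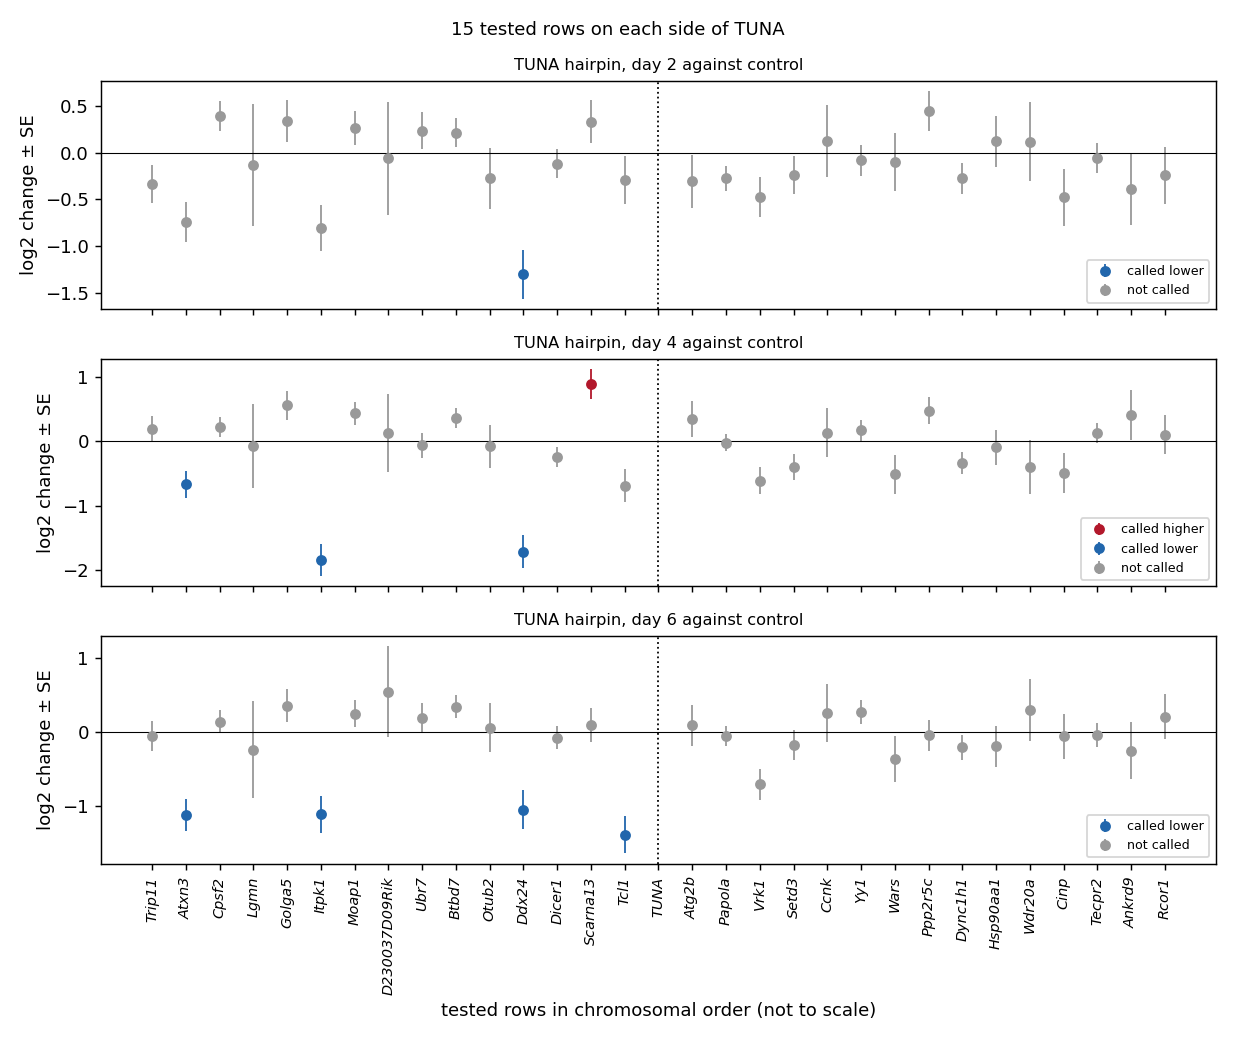
Log2 change ± SE (y axis) at days 2, 4 and 6 against the control for the 15 tested rows on each side of TUNA, in chromosomal order (x axis, not to scale); blue and red mark rows called lower and higher. On the side of Tcl1, Ddx24 is called lower at all 3 days and Itpk1 and Atxn3 at days 4 and 6, while no row on the other side is called. Counted in rows from TUNA, the tested rows reach -61 on the side of Tcl1 and 102 on the other side.

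Extending the view to the 15 nearest tested rows on each side took in 3 further genes that fell, all on the side of Tcl1 and beyond Dicer1. Ddx24, an RNA helicase gene, went from a control mean of 83.5 ± 2.30 normalized counts to 33.5 ± 5.0 on day 2, 26.4 ± 10.8 on day 4 and 40.1 ± 3.52 on day 6 (SD, n = 3). Itpk1, an inositol phosphate kinase gene, stood in the same order at 83.1 ± 4.06, 47.8 ± 11.2, 23.7 ± 10.2 and 38.0 ± 2.22, and Atxn3, which encodes a deubiquitinase, at 87.9 ± 10.7, 52.4 ± 8.25, 55.4 ± 10.7 and 40.5 ± 9.95. By limma Ddx24 was called lower at all 3 days (adjusted p 0.0203, 0.000325 and 0.019), and Itpk1 (0.000112 and 0.0106) and Atxn3 (0.042 and 0.00379) at days 4 and 6. With 1 library left out, the day 2 call of Ddx24 was lost in each of 6 cases (adjusted p up to 0.0975) and its day 6 call in 4 (up to 0.0774). The day 4 call of Atxn3 was lost in 5 cases (up to 0.137) and the day 6 call of Itpk1 without day 6 replicate 1 (0.0507). With all reads as library size, the day 6 calls of Ddx24, Itpk1 and Atxn3 were lost as well. Of the 30 rows 1, 4 and 4 were called at days 2, 4 and 6, and 0 of the 15 on the side of Atg2b, where 0.961%, 14.7% and 6.21% of all rows were called. This window was set with the falls of Ddx24 and Itpk1 already known, and whether the sides differ was not tested. Dicer1, which lies between Ddx24 and Tcl1, did not pass in any of these comparisons, nor did Otub2 next to Ddx24.

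**Figure D4:**
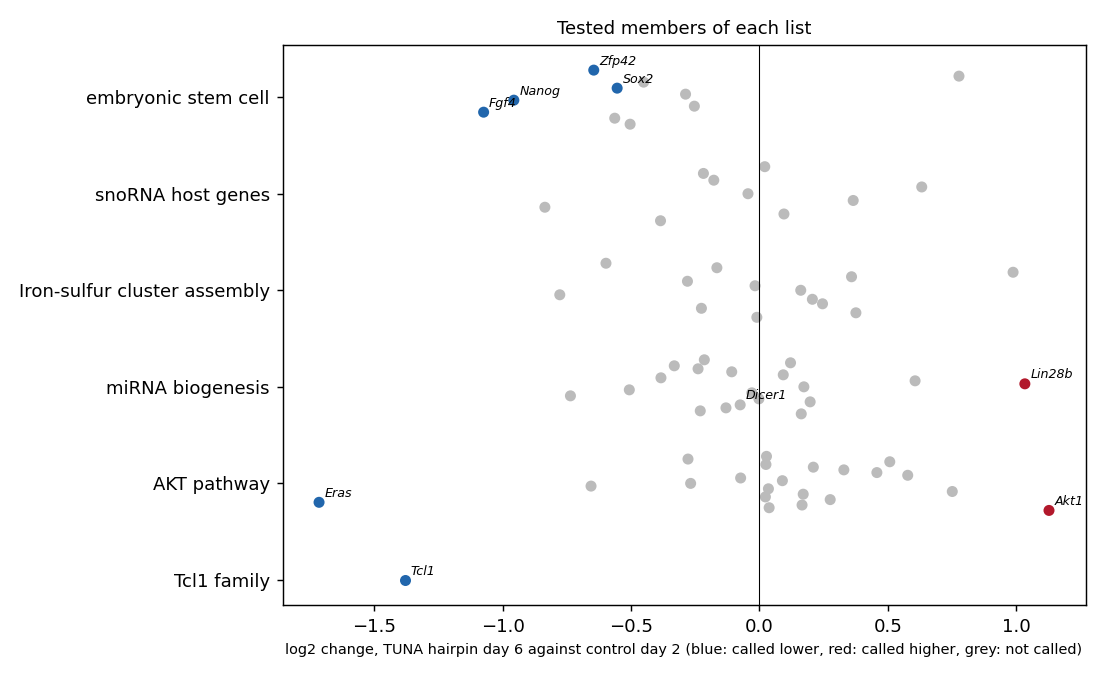
Log2 change at day 6 against the control (x axis) of each tested member (points) of the lists built around the locus genes and of the embryonic stem cell markers (y axis); blue and red mark genes called lower and higher. Tcl1 (-1.38) and Eras (-1.71) stand furthest to the left.

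Genes that work with the members' proteins were counted from lists by role. Of 21 tested genes of the AKT pathway, in which TCL1 acts, 0 passed at day 2, 2 were higher at day 4 and 1 was higher and 1 lower at day 6, with medians of 0.06, 0.14 and 0.09. Over all rows 6.99% were called higher at day 4, and 3.07% higher and 3.15% lower at day 6. Eras, which encodes a Ras protein of embryonic stem cells that feeds the same pathway, fell from 33.1 ± 4.40 to 10.5 ± 6.61 normalized counts by day 6 (SD, n = 3; log2 change -1.71 ± 0.41, adjusted p 0.0164 by limma). Akt1 rose from 13.1 ± 3.42 to 29.2 ± 1.55 (1.13 ± 0.33, 0.0479). The Akt1 call was lost with any of the 6 libraries left out (adjusted p up to 0.162), and that of Eras without control replicate 1 or day 6 replicate 1 or 3 (up to 0.072). At day 4 Pik3r1, a regulatory subunit of PI3 kinase, rose from 9.44 ± 1.91 to 21.2 ± 8.60 (adjusted p 0.0471) and Foxo3, a transcription factor that AKT inhibits, from 102 ± 3.83 to 148 ± 15.2 (0.0257). Each of these 2 calls was lost in 5 of 6 cases with 1 library left out (up to 0.178 and 0.0758).

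Of 19 tested genes of microRNA production, in which Dicer1 acts, 0 passed at day 2, 2 were lower at day 4 and 1 was higher at day 6, with medians of -0.07, -0.16 and -0.07. The shares over all rows were 7.76% lower at day 4 and 3.07% higher at day 6. Lin28a, which blocks the maturation of let-7, fell from 149 ± 10.4 to 95.3 ± 7.48 normalized counts at day 4 (SD, n = 3; log2 change -0.64 ± 0.14, adjusted p 0.00557 by limma) and stood at 167 ± 4.81 at day 6. Its relative Lin28b rose from 37.0 ± 3.99 to 78.9 ± 24.1 at day 6 (1.03 ± 0.21, 0.00586). Neither call was lost when any 1 library was dropped, but with all reads as library size that of Lin28a was (adjusted p 0.0502 by limma-voom). Xpo5, which exports microRNA precursors, fell from 110 ± 12.03 to 70.7 ± 16.2 at day 4 (-0.65 ± 0.20, 0.04), a call lost in 4 of 6 cases (up to 0.159).

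Of 13 tested genes of iron-sulfur cluster assembly, the pathway of Glrx5, Hspa9 was the 1 that passed against the control: this mitochondrial chaperone rose from 271 ± 18.2 to 392 ± 33.3 normalized counts at day 4 (SD, n = 3; adjusted p 0.0336 by limma, lost in 5 of 6 cases with 1 library left out, up to 0.109). At day 4, 6.99% of all rows were called higher and 7.76% lower. The list of snoRNA host genes had 9 tested rows, 1 of them Scarna13, which is not itself a host gene. At day 4, 2 of the 9 were higher: Scarna13, with the call given above, and Snhg11 (72.7 ± 23.4 to 226 ± 59.0, adjusted p 0.000214 by limma). Gas5 was the 1 that was lower (186 ± 46.5 to 124 ± 8.0, 0.042, lost in 5 of 6 cases, up to 0.201). In the Tcl1 family, 5 of 7 rows were listed at 0 everywhere. Mtcp1, the relative on another chromosome, stood at 5.01 ± 1.61 with the control hairpin, 6.87 ± 1.495 on day 2, 9.46 ± 3.54 on day 4 and 5.66 ± 2.62 on day 6, too low for the test.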

How the data were processed

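The authors deposited 1 table of log2 normalized counts per gene symbol for 12 libraries. The submitters' processing notes list BWA, DESeq and the build mm9 and give no version or role for them. How reads were shared between genes was not stated: 43.3% to 56.7% of low values lay within 0.02 of a whole read. Deposited log2 values were turned into normalized counts (2 to that power), and a deposited 0 was kept as 0. The filter kept 8739 rows that reached 10 normalized counts in 3 or more libraries. Log2(value + 1) was fitted with limma 3.58.1 (trend; R 4.3.3) on the 12 libraries and 4 group means. Each comparison had its own Benjamini-Hochberg adjustment, and calls needed an adjusted p under 0.05. Fold changes on that scale understate the change of low genes. The reads behind each library, 3522126 to 5652412, limit precision. The scripts were tested on simulated data.

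Low members were compared with an exact permutation test over libraries. Named by rule were all members, flanking genes past the test in any comparison, list genes past it against the control, and the 3 rows most correlated with each tested member. Vrk1, Papola, Atg2b, Otub2, Gsc and Bdkrb1 are named outside that rule, and none of them was called with limma on all libraries. Ddx24, Itpk1 and Atxn3 come from the wider window, and Bcl11b and 4933433P14Rik from the fit without a filter. The members, lists and tests were chosen with earlier results of these data known. RefSeq tables of GRCm38.p6 gave gene order and promoter sequences for all 9 members, and GENCODE M21 the place of Scarna13. Alternatives were other scalings, filters, pseudocounts, limma-voom, the 2 groups alone, a replicate block, the omission of each library in turn and, added after seeing the data, limma-voom with all reads as library size. Plots used Python 3.11.15 and matplotlib 3.10.9.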

Additional observations from a re-analysis of the deposited data

How the results depend on the processing

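The number of members called, 1 at day 6 against control and against day 2 and 0 in the other 4 comparisons, was the same under median-of-ratios and upper-quartile scaling, no filter, a pseudocount of 5, the 2 groups alone and limma-voom with the authors' scaling. With all reads as library size, an alternative added after the data were seen, it became 0 at day 6 against control and against day 2, and 1 at day 6 against day 4, where Dicer1 was higher (log2 change 0.68, adjusted p 0.028 by limma-voom). In that fit the median of all rows moved by 0.43 to 0.53 in the 3 day 6 comparisons. That fit also ended 12 of the 19 single-gene calls against the control named above. No filter ended those of Akt1 at day 6 and of Atxn3, Gas5, Pik3r1 and Xpo5 at day 4. The 2 groups alone ended those of Gas5, Pik3r1 and Xpo5, and upper-quartile scaling that of Gas5. Limma-voom with the authors' scaling added Vrk1 at days 4 and 6, and no filter added Bcl11b at day 4 and 4933433P14Rik at day 6. Snhg11 at day 2 (adjusted p 0.053 by limma in the main fit) passed with the 2 groups alone, a pseudocount of 5, the replicate block and upper-quartile scaling. Itpk1 at day 2 passed with the 2 groups alone (0.0467 by limma). Calls were also gained between hairpin days, among them Scarna13 at day 6 against day 4. With 1 library left out the count of members was 1 at day 6 against control and 0 to 1 at day 6 against day 2. Of the named single-gene calls, 0 changed direction under any alternative run.

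The calls over all rows were 84, 1289 and 543 at days 2, 4 and 6 against control, 669 for day 4 against day 2, 488 for day 6 against day 4 and 393 for day 6 against day 2. With 1 library left out they ran from 18 to 44, 821 to 1298, 304 to 565, 338 to 744, 236 to 457 and 169 to 392, in that order. With all reads as library size they were 26, 719, 966 (902 higher and 64 lower, beside 268 and 275), 188, 1794 and 1561. Without a filter day 2 had 52 calls, and with the 2 groups alone day 6 against day 4 had 197.

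The replicate numbers showed no clear pairing of the libraries. Of 18 same-numbered pairs, 3 had deviations correlated above 0.1 (-0.277 to 0.328), and a library correlated best with its own number in 14 of 36 checks. With 3 libraries a group, this look cannot exclude that some or all numbers were paired. With the replicate block the calls were 76, 1219, 507, 584, 414 and 332 in the same order, and Tcl1 at day 6 against control had a log2 change of -1.38 (adjusted p 0.00635 by limma), with 1 member called there. Of the single-gene calls above, the block ended that of Gas5 at day 4. Clmn, Snhg10 and Glrx5 rest on few reads, and TUNA, Tcl1b1, Tcl1b2 and Tcl1b3 were listed at 0 in every library.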
